A study of Danio rerio with 12 samples.

Results

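The genes described here encode the initiation and elongation factors of translation, measured in regenerating larval zebrafish fin after exposure to TCDD. They were taken as every gene whose symbol in the array's platform annotation starts with eif or eef, with the eif2ak kinases left out. The rule found 63 genes, read by 77 of the 15502 probe sets tested, and the arrays held 8793 genes with 1 symbol in all. A total of 52 genes had 1 probe set, 8 had 2 and 3 had 3, and a gene's value is the mean log2 ratio of its probe sets. No filter on low values was used, so all 63 genes were tested.

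The 12 Affymetrix arrays covered 4 groups of 3 replicates. All larvae were of the AB strain, had the caudal fin amputated at 2 days post fertilization, and were placed in treated water for 1 h. The vehicle groups received DMSO and were collected at 2 or 3 days post amputation (dpa); the exposed groups received 0.5 ng/mL TCDD, a dioxin that activates the aryl hydrocarbon receptor, and were collected on the same days. Each replicate is RNA from a pool of 150 fins, and the labels do not say whether the pools came from separate clutches, so the p-values measure the spread between these pools. In a bulk sample of this kind, fewer cells of a type and less RNA per cell cannot be told apart.

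Translation begins when eIF2, loaded with initiator tRNA and GTP, joins the small ribosomal subunit together with eIF3 and the scanning factors, while the cap-binding protein eIF4E, the scaffold eIF4G and the helicase eIF4A bring the messenger RNA. Phosphorylation of the alpha subunit of eIF2 traps its exchange factor eIF2B and lowers initiation in general, and the eIF4E-binding proteins block the meeting of eIF4E with eIF4G unless mTORC1 phosphorylates them. Elongation then uses eEF1A to deliver aminoacyl-tRNA, the eEF1B complex to recharge it, eEF2 to move the ribosome and eIF5A to help it past difficult peptide bonds. Regrowing fin makes much new protein, and the messages of many of these factors are themselves regulated with growth.

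Averaged over both days, 6 of the 63 genes were called lower in TCDD-exposed fins and 0 higher, where a gene is called when its limma Benjamini-Hochberg adjusted p over all 13500 features tested (genes, and probe sets without a single symbol) was under 0.05. They were eif2s1a, eif4h, eif2d, eif4ebp1, eif4a1b and eif3ba, and their levels were 21.3% to 44.4% lower. Over all features the same comparison called 5.80%, of which 3.67% were lower and 2.13% higher. Counting estimates without regard to the test, 46 of the 63 genes lay below 0, with a median difference of −0.11 (log2, TCDD minus vehicle), whereas 49.1% of all features lay below 0, with a median of 0.00. Of the 63 genes, 13 were lower and 2 higher at an unadjusted p under 0.05. Over all features 12.7% were lower and 9.47% higher (22.2% in both directions). The 6 TCDD arrays lay wholly below the 6 vehicle arrays for 5 genes (7.94%) and wholly above for 0. Over all features these shares were 2.90% and 1.76%. Differences in the text are on the log2 scale of the deposited ratios, and the ratios are scaled gene by gene, so levels of different genes are not compared.

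**Figure D1:**
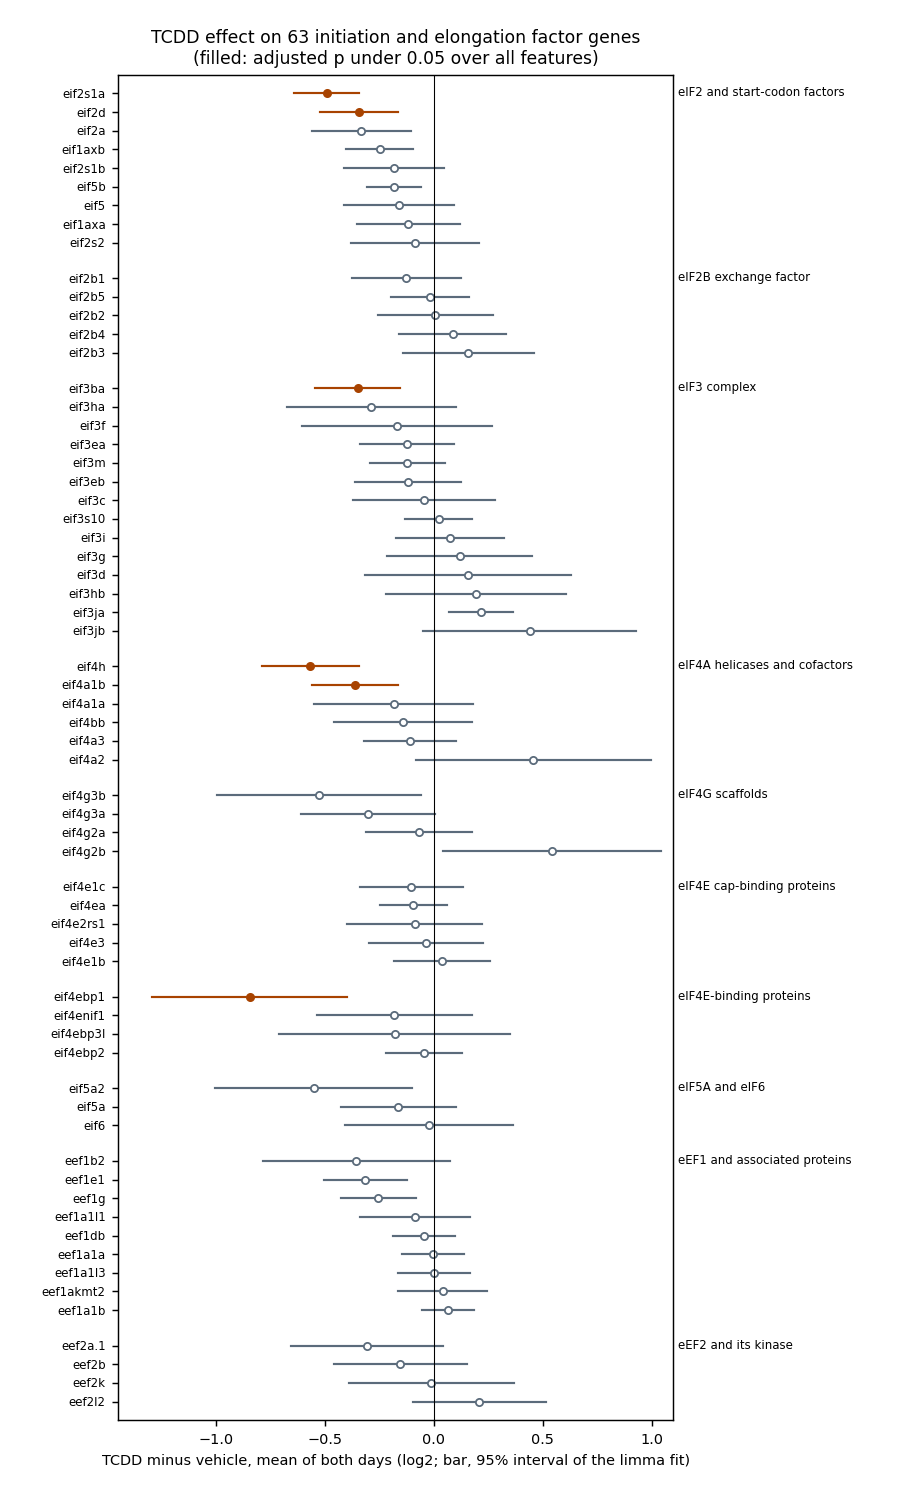
TCDD minus vehicle (log2, mean of both days) of each of the 63 genes, grouped by role; points are estimates, bars the 95% intervals of the limma fit, and filled points have an adjusted p under 0.05. The 6 filled points all lie below 0, from −0.85 (eif4ebp1) to −0.35, and the factors of eIF2 and start-codon selection are all to the left of 0.

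Among the eIF2 and start-codon factors, 9 of 9 genes had a difference below 0 (median −0.18). Of these 9 genes 2 were called, beside 5.80% of all features. The clearest was eif2s1a, one of a pair of zebrafish genes for the alpha subunit of eIF2, the subunit whose phosphorylation slows initiation. Its log2 values were 0.29, 0.21 and 0.15 in vehicle at 2 dpa and 0.30, 0.26 and 0.22 in vehicle at 3 dpa, against −0.21, −0.17 and −0.25 in TCDD at 2 dpa and −0.19, −0.21 and −0.50 in TCDD at 3 dpa. All 6 TCDD arrays were below all 6 vehicle arrays. The averaged difference was −0.49 ± 0.0674 (SE, 6 arrays against 6; limma adjusted p = 0.00504), which is 28.9% lower in level. On single days it was −0.42 at 2 dpa (limma adjusted p = 0.138) and −0.56 at 3 dpa (limma adjusted p = 0.0336).

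The second called gene of this role was eif2d, whose product can place initiator tRNA on some messages without eIF2 and acts in ribosome recycling. In vehicle it read 0.16, 0.23 and 0.03 at 2 dpa and 0.12, 0.18 and 0.06 at 3 dpa. In TCDD it read −0.08, −0.04 and −0.44 at 2 dpa and −0.33, −0.18 and −0.21 at 3 dpa, so the 6 TCDD arrays again lay below the 6 vehicle arrays. The difference was −0.35 ± 0.0807 (SE; limma adjusted p = 0.0366), a level 21.3% lower. The call was lost without any 1 of vehicle 2 dpa replicates 1, 2 and 3, vehicle 3 dpa replicates 1 and 2, and TCDD 3 dpa replicates 1 and 3, with adjusted p from 0.0536 to 0.0870.

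The other copy of the alpha subunit gene, eif2s1b, had a difference of −0.18 ± 0.103 (limma adjusted p = 0.340), and the beta subunit gene eif2s2 one of −0.09 ± 0.132 (limma adjusted p = 0.769). Both copies of the alpha subunit gene therefore pointed down, and only eif2s1a passed the test. For eif1axb, one of the genes for the scanning factor eIF1A, the difference was −0.25 (limma adjusted p = 0.0619), with all 6 TCDD arrays below all 6 vehicle arrays, and its copy eif1axa gave −0.12 (0.593). The separation of eif1axb was narrow, with its highest TCDD array at 0.02 and its lowest vehicle array at 0.03. Its 3 probe sets, fitted singly, gave −0.08, −0.22 and −0.45, with limma adjusted p of 0.716, 0.282 and 0.0731. The remaining genes of this role were eif2a, which encodes an alternative initiator tRNA carrier (−0.33, limma adjusted p = 0.0861), eif5b, whose GTPase joins the subunits (−0.18, 0.0803), and eif5, the activator of GTP hydrolysis by eIF2 (−0.16, 0.470). Fitted singly, the 2 probe sets of eif5b gave −0.19 and −0.18, with limma adjusted p of 0.469 and 0.507.

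**Figure D2:**
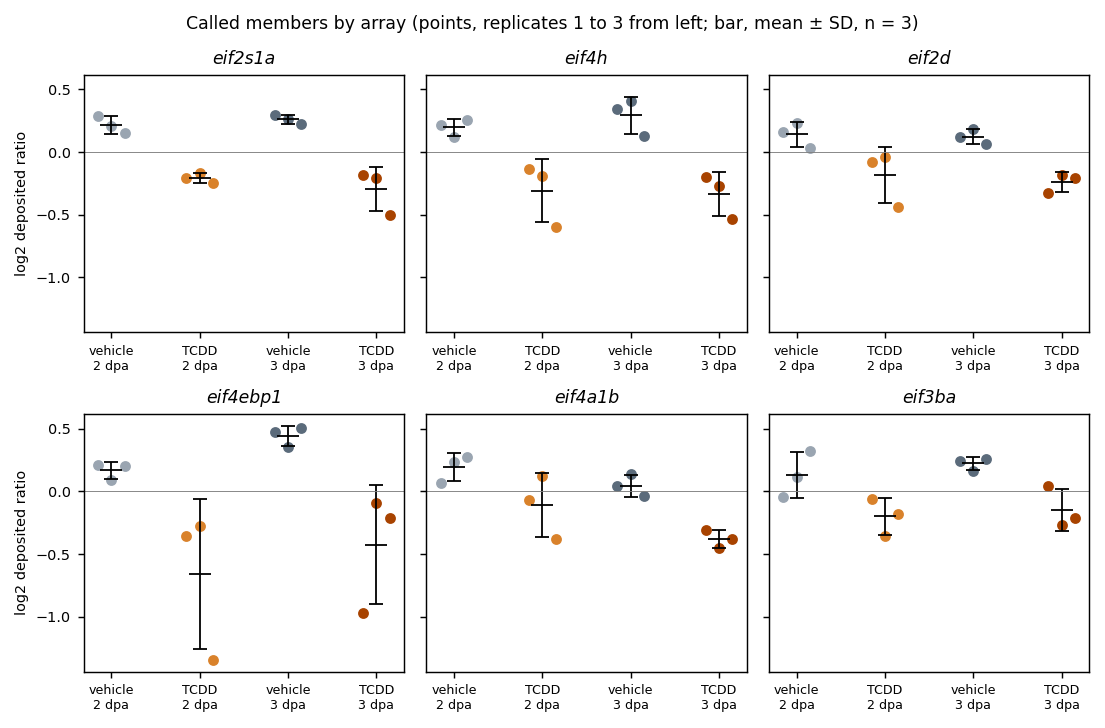
Log2 deposited ratio of the 6 called genes on each array, replicates 1 to 3 from left in each group; bars give the mean ± SD of 3 arrays. The TCDD points of eif2s1a, eif4h, eif2d and eif4ebp1 all lie below every vehicle point, and those of eif4a1b and eif3ba overlap the vehicle range.

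The exchange factor eIF2B, which reloads eIF2 with GTP, showed no common direction in the TCDD effect averaged over both days. Of its 5 subunit genes, 2 had estimates below 0 and 0 were called, beside 5.80% of all features. The median difference was 0.01. The values ran from −0.13 for eif2b1 through −0.02 for eif2b5, 0.01 for eif2b2 and 0.09 for eif2b4 to 0.16 for eif2b3, all with a limma adjusted p of at least 0.565.

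The helicase eIF4A unwinds the leader of the message, and eIF4B and eIF4H stimulate it. In this role 5 of 6 genes had estimates below 0 (median −0.16) and 2 were called, beside 5.80% of all features. The cofactor gene eif4h read 0.22, 0.12 and 0.25 in vehicle at 2 dpa and 0.35, 0.41 and 0.13 at 3 dpa, and in TCDD −0.13, −0.19 and −0.60 at 2 dpa and −0.20, −0.27 and −0.53 at 3 dpa. No TCDD array reached the lowest vehicle array. Its difference was −0.57 ± 0.0994 (SE; limma adjusted p = 0.0146), or 32.5% lower in level, and it was −0.51 at 2 dpa (limma adjusted p = 0.224) and −0.63 at 3 dpa (0.0827).

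For eif4a1b, a gene for the main helicase, the vehicle arrays read 0.06, 0.24 and 0.27 at 2 dpa and 0.04, 0.14 and −0.04 at 3 dpa. The TCDD arrays read −0.07, 0.13 and −0.38 at 2 dpa and −0.31, −0.46 and −0.38 at 3 dpa, so the groups overlapped at 2 dpa through TCDD replicate 2 and did not overlap at 3 dpa. The averaged difference was −0.36 ± 0.0890 (SE; limma adjusted p = 0.0440), a level 22.2% lower. This call was kept with 1 array left out only where that array was TCDD 2 dpa replicate 2 (adjusted p = 0.0300), and the other 11 arrays gave 0.0518 to 0.0957. The other helicase genes did not pass the test: eif4a1a had −0.18 (limma adjusted p = 0.585), eif4a3, which belongs to the exon junction complex, had −0.11 (0.566), and eif4a2 had 0.46 (0.312). The second cofactor gene, eif4bb, had −0.14 (0.634).

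Of the 4 eIF4G-type scaffold genes 3 had estimates below 0, and 0 were called, beside 5.80% of all features. On eif4g3b the difference was −0.53 ± 0.211 (limma adjusted p = 0.173) on eif4g3a −0.30 ± 0.138 (0.236) and on eif4g2a −0.07 ± 0.110 (0.783), whereas eif4g2b, a gene for the related scaffold DAP5 used in cap-independent initiation, had the highest difference of all 63 genes, 0.54 ± 0.225 (limma adjusted p = 0.191). For eif4g2b, TCDD 2 dpa replicate 3 and TCDD 3 dpa replicates 1 and 3 read 0.96, 0.84 and 0.74, the other TCDD arrays read 0.08, 0.03 and −0.31, and the vehicle arrays lay between −0.44 and 0.01. The high mean thus came from 3 of the 6 TCDD arrays. The same 3 arrays read 1.14, 0.71 and 0.75 for eif3jb.

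No cap-binding protein gene passed the test. The main eIF4E gene eif4ea had a difference of −0.10 (limma adjusted p = 0.487), eif4e1c −0.11 (0.640), eif4e1b 0.04 (0.879), the divergent family member eif4e3 −0.04 (0.908) and eif4e2rs1 −0.09 (0.777). Here 4 of 5 estimates were below 0 and 0 were called, beside 5.80% of all features. The 95% intervals stayed between −0.40 (eif4e2rs1) and 0.26 (eif4e1b).

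Of the genes whose products bind and restrain eIF4E, 4 of 4 had estimates below 0 and 1 was called, beside 5.80% of all features. That gene, eif4ebp1, encodes the translational repressor that mTORC1 switches off, and had the largest negative difference of the 63. It read 0.21, 0.09 and 0.20 in vehicle at 2 dpa, 0.47, 0.35 and 0.51 in vehicle at 3 dpa, −0.35, −0.28 and −1.35 in TCDD at 2 dpa and −0.97, −0.10 and −0.21 in TCDD at 3 dpa. The groups did not overlap on either day, and the TCDD arrays were widely spread, with a SD of 0.595 at 2 dpa against 0.0663 in vehicle. The averaged difference was −0.85 ± 0.202 (SE; limma adjusted p = 0.0391), a level 44.4% lower, with a 95% interval from −1.30 to −0.40. The call was lost without any 1 of the 6 vehicle arrays or of TCDD 3 dpa replicates 1 and 3 (adjusted p from 0.0578 to 0.0881). The related genes gave −0.05 for eif4ebp2 (limma adjusted p = 0.793), −0.18 for eif4ebp3l (0.736) and −0.18 for eif4enif1, which encodes the carrier of eIF4E into the nucleus (0.582).

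The large eIF3 complex holds the small subunit and the other factors together. Its 14 genes split evenly, 7 below 0 and 7 above, with a median of −0.01. Of the 14 genes 1 was called (7.14%), near the share of 5.80% of all features. The called gene was eif3ba, for subunit b, which read −0.05, 0.11 and 0.32 in vehicle at 2 dpa, 0.24, 0.16 and 0.26 in vehicle at 3 dpa, −0.06, −0.35 and −0.18 in TCDD at 2 dpa and 0.05, −0.27 and −0.22 in TCDD at 3 dpa. The groups did not overlap on either day, though 1 TCDD array at 3 dpa lay above 1 vehicle array at 2 dpa, and the difference was −0.35 ± 0.0880 (SE; limma adjusted p = 0.0473), a level 21.5% lower. The call was lost under 8 of 9 other processing alternatives (adjusted p from 0.05005 to 0.0855; the pseudocount kept it), and was kept with 1 array left out only for TCDD 2 dpa replicate 1 and TCDD 3 dpa replicate 1; the other 10 arrays gave adjusted p from 0.0559 to 0.0979. The genes of subunits a, c, g and i gave 0.02 for eif3s10 (subunit a), −0.05 for eif3c, 0.12 for eif3g and 0.07 for eif3i.

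Leaving subunit j aside, the remaining eIF3 genes below 0 were eif3ha (−0.29), eif3f (−0.17), eif3ea (−0.12), eif3eb (−0.12) and eif3m (−0.12), and above 0 were eif3d (0.16) and eif3hb (0.19). The loosely bound subunit j, which helps in ribosome recycling, had eif3ja at 0.21 ± 0.0662 (limma adjusted p = 0.0874) and eif3jb at 0.44 ± 0.220 (0.276). Neither passed the test.

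For eif5a2, one of the genes of the hypusine-bearing factor eIF5A, the difference was −0.55 ± 0.203 (limma adjusted p = 0.141). Its 2 probe sets gave −0.68 and −0.43, and in the fit of single probe sets the second was called (limma adjusted p = 0.0374). TCDD 3 dpa replicate 3 read −1.30 for this gene and the other 11 arrays lay between −0.30 and 0.67. The other gene, eif5a, had −0.16 (limma adjusted p = 0.481), and eif6, whose product keeps the large subunit from joining too early, had −0.02 (0.958).

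Elongation factor genes were called in no comparison, beside at most 5.80% of all features in any of them. With so few genes, this count is not read as a result about elongation. Of the 9 genes of eEF1 and its partners, 6 had estimates below 0, with a median of −0.05. The 4 eEF1A genes, whose product is among the most abundant of cellular proteins, were not called: eef1a1l1 had −0.09 ± 0.114 (limma adjusted p = 0.736), eef1a1a 0.00 ± 0.0649 (0.983), eef1a1l3 0.00 ± 0.0740 (0.999) and eef1a1b 0.06 ± 0.0533 (0.553). Their 95% intervals lay between −0.34 and 0.18. The tightest of the 63 genes between replicates was eef1a1b, with a residual SD of 0.0560, and like eef1a1a its single probe set has a median ratio below 1. Such a median would arise from a lower limit on the divisor for dim probe sets, which the sources used here do not state, so the small differences of eef1a1a and eef1a1b may be those of probe sets with low signal.

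The eEF1B complex, which exchanges GDP for GTP on eEF1A, had estimates below 0 for its 3 genes, eef1g (−0.26 ± 0.0770, limma adjusted p = 0.0820), eef1b2 (−0.36 ± 0.194, 0.325) and eef1db (−0.05 ± 0.0636, 0.750). The gene eef1e1 encodes a scaffold protein of the aminoacyl-tRNA synthetase complex, also called AIMP3 in mammals, and had −0.32 ± 0.0855 (limma adjusted p = 0.0584). The lysine methyltransferase gene eef1akmt2 had 0.04 (0.861).

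For the translocase eEF2, eef2a.1 had −0.31 ± 0.156 (limma adjusted p = 0.285), eef2b −0.15 ± 0.138 (0.586) and eef2l2 0.21 ± 0.138 (0.435). The eEF2 kinase gene eef2k, whose product slows elongation, had −0.01 ± 0.171 (0.981). On eef2l2, TCDD 3 dpa replicate 3 read 0.78 and the other 11 arrays lay between −0.25 and 0.04. Of its 3 probe sets, 1 gave 0.64 and the others −0.02 and 0.00, and muscle marker genes had their highest median on that same array (1.49, against −0.36 to 0.27 on the other 11).

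Each day was also tested alone. At 2 dpa, 0 of the 63 genes were called (0.193% of all features were, 0.0815% lower and 0.111% higher), and 10 had an unadjusted limma p under 0.05, all of them lower (10.7% of all features, 6.81% lower and 3.87% higher). The 5 of lowest p were eif2s1a (−0.42, adjusted p = 0.138), eif4h (−0.51, 0.224), eif4ebp1 (−0.83, 0.326), eif2d (−0.33, 0.334) and eif3ba (−0.33, 0.376), all among the 6 called over both days. The averaged effect contains the effect at 2 dpa, so this overlap is partly built in and is no separate support. The 3 TCDD arrays lay wholly below the 3 vehicle arrays for 12 genes (19.0%) and wholly above for 2 (3.17%). Over all features these shares were 12.2% and 8.57%. Of the 63 estimates, 45 were below 0, against 52.0% of all features.

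At 3 dpa, 1 gene was called, eif2s1a (0.570% of all features were called, 0.311% lower and 0.259% higher). Here 12 of the 63 genes were lower and 1 higher at an unadjusted limma p under 0.05. Over all features 8.71% were lower and 7.25% higher (16.0% in both directions). After eif2s1a (−0.56 ± 0.0953, limma adjusted p = 0.0336) the lowest p-values were those of eif4h (−0.63, 0.0827), eef1e1 (−0.49, 0.0990), eif4a1b (−0.43, 0.142) and eif5b (−0.26, 0.149). The 2 probe sets of eif5b differed here, at −0.39 and −0.12, and fitted singly had limma adjusted p of 0.353 and 0.838. Complete separation of the arrays occurred for 12 genes lower (19.0%) and 1 higher (1.59%), beside 8.41% and 8.19% of all features. Below 0 were 44 of the 63 estimates, against 47.5% of all features. The call of eif2s1a at 3 dpa was lost without any 1 of vehicle 2 dpa replicates 1 and 2, the 3 vehicle 3 dpa arrays, TCDD 2 dpa replicates 1 and 2, and TCDD 3 dpa replicate 3 (adjusted p from 0.0594 to 0.130).

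The days share no arrays, and their estimates can be set side by side. An estimate below 0 on both days was found for 38 genes (60.3%, against 34.9% of all features), above 0 on both for 12, and of opposite sign for 13. Across the 63 genes the 2 sets of differences had a Pearson r of 0.722 and a Spearman rho of 0.652, and across all features 0.802 and 0.656; genes are not independent replicates and share the arrays, so no p is given. The gene farthest from the diagonal was eif4a1a, at 0.22 on 2 dpa and −0.58 on 3 dpa.

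**Figure D3:**
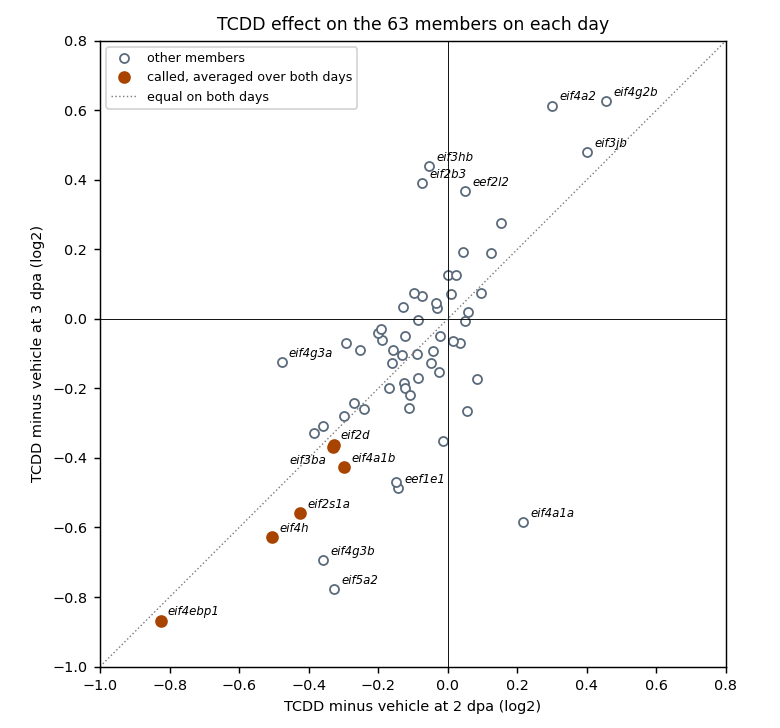
TCDD minus vehicle (log2) at 2 dpa (horizontal) and at 3 dpa (vertical) for the 63 genes; filled points are the 6 genes called over both days and the dotted line marks equal differences. The filled points lie in the lower left near the line, from −0.30 and −0.43 (eif4a1b) to −0.83 and −0.87 (eif4ebp1), and eif4a1a stands apart at 0.22 and −0.58. The filled genes were called on the mean of the 2 plotted differences, so their place in the lower left was favoured in advance.

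Whether TCDD acted differently on the 2 days was tested gene by gene, and 0 of 63 genes were called (0.00% of all features). At an unadjusted limma p under 0.05 there was 1 gene, eif4a1a, with a lower effect at 3 dpa (1.44% of all features, 0.659% lower and 0.778% higher). The difference of its effects was −0.80 ± 0.328 (SE; limma adjusted p = 1.00). Its arrays read 0.02, −0.16 and −0.24 in vehicle at 2 dpa, −0.07, −0.21 and 0.55 in TCDD at 2 dpa, 0.04, 0.70 and 0.75 in vehicle at 3 dpa and 0.11, −0.09 and −0.29 in TCDD at 3 dpa. One TCDD array at 2 dpa and 2 vehicle arrays at 3 dpa were high, and the groups overlapped on both days. The next estimates by p were −0.34 for eef1e1, 0.46 for eif2b3, −0.32 for eif4e1c and 0.49 for eif3hb, all with a limma adjusted p of 1.00. Of the 63 differences, 31 were below 0, against 45.4% of all features.

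Between 2 and 3 dpa the factors had few differences by the test within either treatment; these comparisons share arrays with those above. In vehicle 0 genes were called (0.00% of all features), and at an unadjusted limma p under 0.05 there were 1 lower and 2 higher (1.56% and 2.08% of all features, 3.64% in all). The arrays of the days were wholly apart for 5 genes lower and 5 higher (7.94% each, beside 5.11% and 5.98% of all features). Estimates below 0 numbered 37 of 63 (58.7%, against 48.6% of all features). The 5 of lowest p were eif2b3 (−0.58), eef1e1 (0.34), eif4a1a (0.62), eif5a (0.29) and eif2b1 (−0.26), all with an adjusted p of 1.00, and the signs of eif5a and eif2b1 turned when the arrays' hybridisation level was a block (−0.30 and 0.13). In vehicle that level was lower on all arrays at 2 dpa and higher on all at 3 dpa, so day and level cannot be told apart there, and the blocked values rest on 1 array, TCDD 3 dpa replicate 2, against the other TCDD arrays at 3 dpa. In TCDD 0 genes were called (0.00%), with 1 lower and 2 higher at an unadjusted limma p under 0.05 (1.42% and 2.34% of all features, 3.76% in all). Here 3 genes lower and 3 higher had arrays wholly apart (4.76% each, beside 1.96% and 3.38% of all features). Estimates below 0 numbered 36 of 63 (57.1%, against 42.6% of all features). The 5 of lowest p were eif3ja (0.25), eef1db (0.21), eif5a2 (−0.66), eif2b1 (−0.35) and eif4a1b (−0.27), all with a limma adjusted p of 0.993.

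Many members come as a pair of gene copies from the genome duplication of the fish lineage, and all 9 pairs named with a and b were compared by an exact two-sided permutation test of the array-wise difference between the copies over both days (924 arrangements of 6 TCDD and 6 vehicle arrays, smallest p 0.0022). The arrangements did not keep the days apart, and each SD spans both days. Unequal spread between the treatments can also affect this p. Each copy is scaled to its own probe sets, so a value within 1 treatment does not tell which copy is higher. Only its change between treatments can be read. The difference of eif4g2a minus eif4g2b was −0.44 ± 0.336 in TCDD and 0.17 ± 0.126 in vehicle (SD, n = 6; exact p = 0.0022, adjusted over the 9 pairs 0.0195). For eif2s1a minus eif2s1b it was −0.12 ± 0.196 in TCDD and 0.19 ± 0.192 in vehicle (SD, n = 6; exact p = 0.0108, adjusted 0.0487). On vehicle 3 dpa replicate 3 eif2s1b read −0.33, and on the other vehicle arrays it read 0.07 to 0.23. The permutation test was not repeated without that array. The other 7 pairs, those of eif1ax, eif3e, eif3h, eif3j, eif4a1, eif4g3 and eef1a1, had an exact adjusted p of at least 0.395, which does not show that their copies acted alike. The estimate farthest from 0 among them was −0.48 for eif3ha minus eif3hb, with a SD of 0.532 in TCDD and 0.501 in vehicle.

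**Figure D4:**
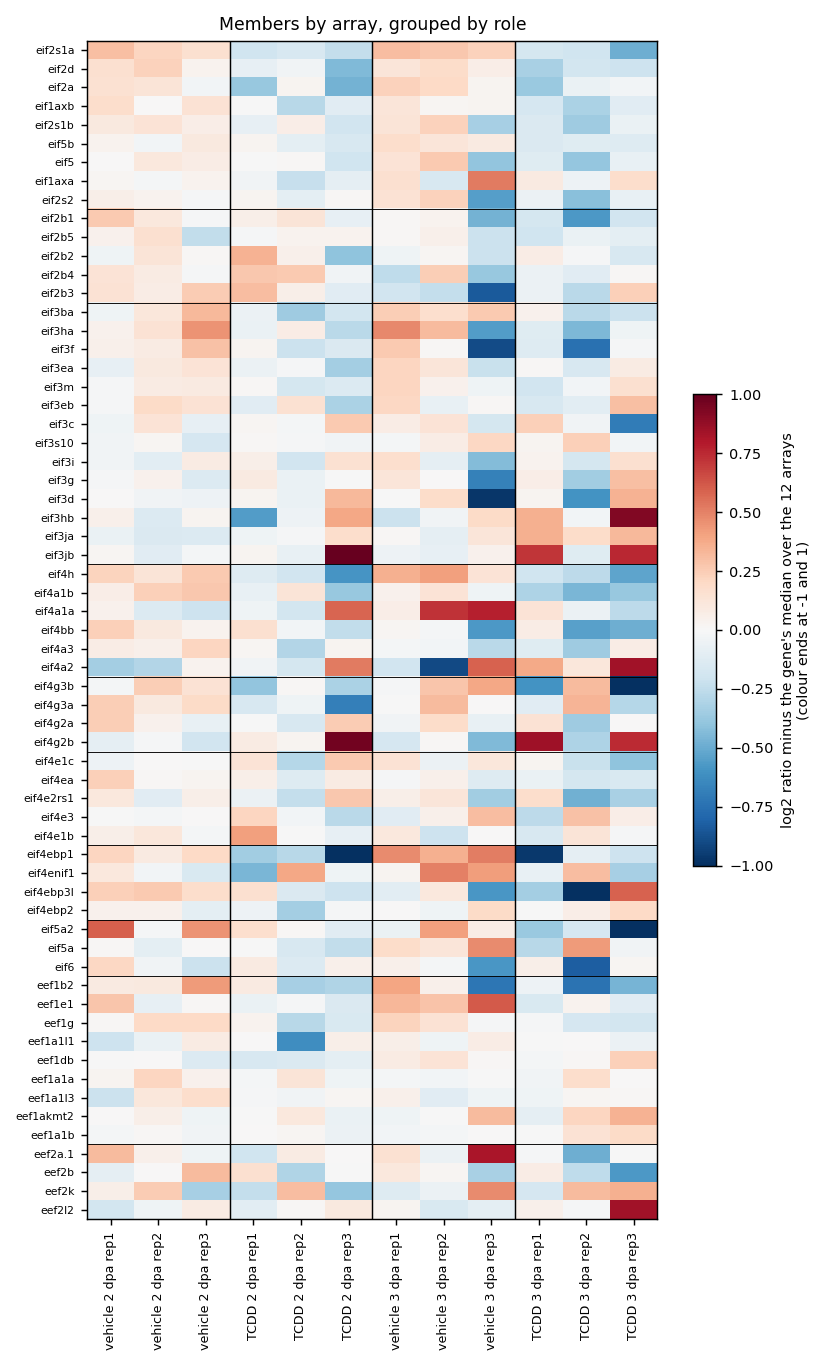
Log2 ratio of each gene on each array after subtracting the gene's median over the 12 arrays, with genes grouped by role and colour ending at −1 and 1. Rows such as eif2s1a, eif4h and eif4ebp1 change colour with treatment, and a run of genes, eif3d, eif3f and eif6 among them, is blue on vehicle 3 dpa replicate 3 and TCDD 3 dpa replicate 2.

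Part of the spread among the factors followed single arrays. Vehicle 3 dpa replicate 3 and TCDD 3 dpa replicate 2 were the 2 lowest arrays for 15 of the 63 genes (23.8%, against 6.87% of all features). These were eef1b2, eif2b1, eif2b3, eif2s1b, eif2s2, eif3d, eif3f, eif3g, eif3ha, eif4bb, eif4e2rs1, eif4ebp3l, eif4g2b, eif5 and eif6. None of the 6 called genes is on this list. A vehicle array among the 2 lowest nearly excludes a call lower in TCDD, so their absence was close to fixed in advance. The 2 arrays were picked after seeing the data, so these shares only describe them. On eif3d the 2 arrays read −0.97 and −0.60 and the other 10 lay between −0.07 and 0.35. On the same arrays the median over the ribosomal protein genes was −0.22 and −0.26, with −0.30 to 0.22 on the other 10. With both arrays left out, a choice made after seeing the data, 6 genes were called over both days: eif2s1a, eif4h, eif2d, eif4ebp1 and eif4g3b lower and eif3ja higher, and 0 were called at 3 dpa. The share of all features called in that fit is not given here, so these counts are not read as a result about the factors.

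Some features of the arrays moved with exposure. On TCDD arrays the GAPDH control probe sets had a 5′ minus 3′ difference of log2 ratios of 0.169 to 0.486. On vehicle arrays this difference was −0.102 to 0.0816. Each ratio is scaled to its own probe set, so the difference compares arrays and does not give the signal of either end. This measure of RNA or labelling quality cannot be told apart from TCDD here. Hybridisation controls read 0.260 to 0.344 on 4 arrays, all 3 of vehicle at 3 dpa and TCDD 3 dpa replicate 2, and −0.143 to −0.0125 on the other 8, and with this level as a block 1 of the 6 calls, eif2s1a, remained. The size of the level's effect in that fit comes from TCDD 3 dpa replicate 2 alone, set against the other TCDD arrays at 3 dpa. All 4 pigment cell markers had estimates below 0 (median −0.89, with dct, gch2 and mitfa called lower), and their median ran from −1.18 to −0.32 on TCDD arrays and from −0.20 to 0.49 on vehicle arrays. All 15 muscle markers had estimates above 0 (median 0.34) and 0 were called, with 0 at an unadjusted limma p under 0.05. Their median ran from −0.29 to 1.49 on TCDD arrays and from −0.36 to −0.04 on vehicle arrays. The neutrophil gene mpx was higher by 0.79 (limma adjusted p = 0.000304), while 5 of the 9 leukocyte markers had estimates below 0. Of the 14 epidermal markers 6 were below 0, with dspa called higher and krt91 lower. Of the 13 fin fold and mesenchyme markers 7 were, with evx1 called higher and prrx1b lower. Among red blood cell, neuron and endothelium markers 3 of 7, 3 of 9 and 1 of 4 were below 0, and 0 were called. Those of red blood cells ran from −0.90 (cahz) to 1.17 (hbae3). Neuron markers ran from −0.21 (syt1a) to 1.15 (gap43), and endothelium markers from −0.15 (fli1) to 0.19 (tie1). The part of these shifts in the factors' results was not tested. The aryl hydrocarbon receptor target cyp1a, which checks the labels, was above every vehicle array on all 6 TCDD arrays (8.31, limma adjusted p = 0.000663). It read −10.3 to −5.37 on vehicle arrays and 0.98 to 2.10 on TCDD arrays. The size of this difference depends on the very low vehicle ratios, which were logged without a pseudocount.

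Genes that act beside the factors were read from lists of the same pathways. Beside the calls in these lists stand the 5.80% of all features called over both days, 3.67% lower and 2.13% higher. The 4 measured genes around eIF2 phosphorylation were the kinase eif2ak3, the phosphatase subunit ppp1r15a and the stress-induced transcription factors atf4a and atf4b, whose messages are translated better when eIF2 alpha is phosphorylated. None had an estimate below 0 (median 0.56) and atf4a was called higher. It read −0.34, −0.21 and −0.05 in vehicle at 2 dpa, −0.43, −0.17 and −0.64 in vehicle at 3 dpa, 0.17, 0.26 and 0.10 in TCDD at 2 dpa and 0.28, 0.04 and 0.51 in TCDD at 3 dpa. All TCDD arrays were above all vehicle arrays, and the difference was 0.53 ± 0.106 (SE; limma adjusted p = 0.0230). The call of atf4a was lost without vehicle 2 dpa replicate 1 or 2 or vehicle 3 dpa replicate 1 (adjusted p from 0.0539 to 0.0598), as it was with the hybridisation block (0.0961). The others gave 1.15 for ppp1r15a (limma adjusted p = 0.0825), 0.60 for atf4b (0.109) and 0.02 for eif2ak3 (0.933).

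A further list held genes of the mTORC1 pathway, whose kinase controls the eIF4E-binding proteins. Beside them it held the eIF4E kinase genes mknk1, mknk2a and mknk2b, which are not parts of mTORC1. Of its 19 genes, 10 had estimates below 0 (median −0.02), with mknk1 called higher and sesn3 lower. The kinase gene mknk1, whose product phosphorylates eIF4E, had 1.08 ± 0.260 (limma adjusted p = 0.0407). The mknk1 arrays that read high were TCDD 2 dpa replicate 3 and TCDD 3 dpa replicates 1 and 3, at 1.17, 1.07 and 1.39, the same arrays as for eif4g2b, and the other TCDD arrays read 0.03 to 0.21. The sestrin gene sesn3, an mTORC1 inhibitor, had −0.59 ± 0.150 (limma adjusted p = 0.0481). Both calls were lost for 10 of the 12 arrays left out in turn, with adjusted p up to 0.0911 for mknk1 and 0.102 for sesn3; mknk1 kept its call without TCDD 2 dpa replicate 1 or TCDD 3 dpa replicate 2, and sesn3 without vehicle 2 dpa replicate 1 or vehicle 3 dpa replicate 2. With the hybridisation level as a block both calls were lost as well (0.178 for mknk1 and 0.135 for sesn3), and that of sesn3 was also lost with the highest probe set of a gene (0.0502), single probe sets (0.0517), centring (0.0629) or the 2 low arrays left out (0.0895). The mtor gene itself had −0.21 (0.190).

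Among the 19 cytosolic aminoacyl-tRNA synthetase and partner genes, 14 estimates were below 0 (median −0.12) and kars1, for lysyl-tRNA synthetase, was called lower, at −0.34 ± 0.0674 (limma adjusted p = 0.0220). Its TCDD arrays lay between −0.34 and −0.01 and its vehicle arrays between 0.01 and 0.30, without overlap. The kars1 call was lost without vehicle 2 dpa replicate 2 (0.0554) or vehicle 3 dpa replicate 1 (0.0547), as it was with the hybridisation block (0.0511). Next by p were eprs1 (−0.57, 0.0676) and gars1 (−0.37, 0.0717). On single days 11 of the 19 estimates were below 0 at 2 dpa (median −0.02) and 15 at 3 dpa (median −0.19). The difference of kars1 was −0.20 at 2 dpa (limma adjusted p = 0.513) and −0.49 at 3 dpa (0.0553).

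The list for the hypusine modification of eIF5A and the diphthamide modification of eEF2 held 5 genes. One of them, odc1, acts in polyamine synthesis and makes neither modification. In this list 3 estimates were below 0 and 0 genes called, and the highest was odc1 (0.87, limma adjusted p = 0.524). At an unadjusted limma p under 0.05 were 3: dph7 (−0.33, adjusted p = 0.0517), dhps (−0.42, 0.0656) and dph1 (−0.33, 0.0750). Release, recycling and rescue factors had 5 of 8 below 0 (median −0.22) and 0 called, with 2 at an unadjusted limma p under 0.05: denr (−0.40, adjusted p = 0.0621) and mcts1 (−0.38, 0.112), whose products form a pair related to eIF2D. Poly(A) binding proteins and partners had 4 of 7 below 0 and 0 called, with pabpc1b (−0.67, limma adjusted p = 0.170) and pabpc1a (−0.43, 0.215) at an unadjusted p under 0.05. Mitochondrial translation factors, which serve a separate ribosome, had 6 of 7 below 0 (median −0.14) and 0 called, with 0 at an unadjusted p under 0.05. The lowest p among them was that of tsfm (−0.23, limma adjusted p = 0.343). Over all features, 22.2% had an unadjusted limma p under 0.05 in this comparison, 12.7% lower and 9.47% higher. With so few genes a list, these counts are not read as results about the lists.

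The cytosolic ribosomal protein genes had estimates below 0 for 72 of 75 (median −0.22). Of these, rpl22 (−0.25, limma adjusted p = 0.0442), rpl22l1 (−0.65, 0.0282) and rpl37 (−0.32, 0.0495) were called lower, 3 of 75 beside 3.67% of all features, and 31 were lower at an unadjusted limma p under 0.05, beside 12.7%. The share called was thus near that of all features. For the initiation and elongation factors the share below 0 was 46 of 63 and the median −0.11. No test was made of the difference between the lists.

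**Figure D5:**
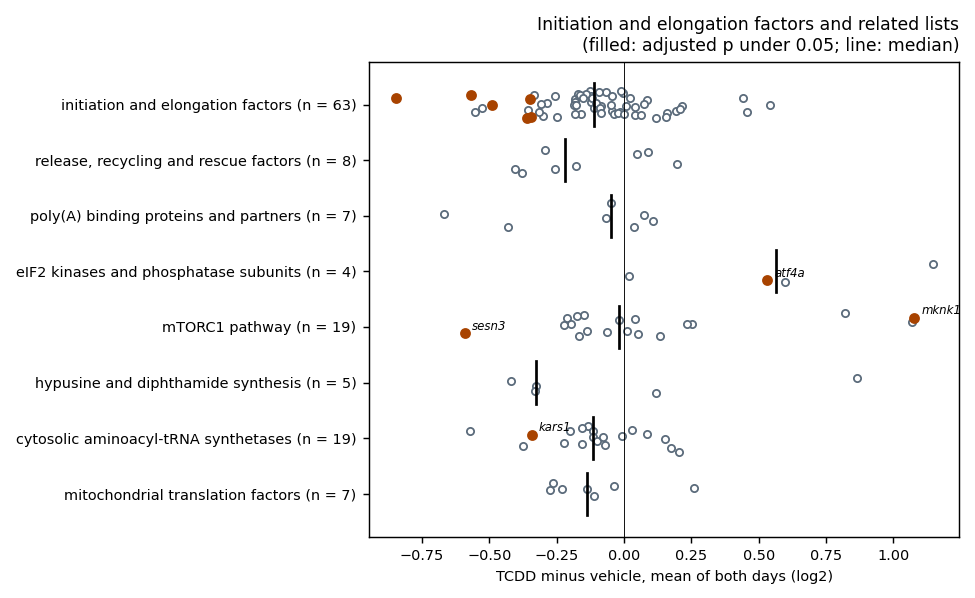
TCDD minus vehicle (log2, mean of both days) for the 63 genes and 7 related lists; each point is a gene, filled where the adjusted p is under 0.05, and vertical lines are medians. The medians run from −0.33 for hypusine and diphthamide synthesis to 0.56 for the genes around eIF2 phosphorylation, which here include atf4a and atf4b. The list labelled mTORC1 pathway also holds the eIF4E kinase genes mknk1, mknk2a and mknk2b. That labelled hypusine and diphthamide synthesis also holds the polyamine synthesis gene odc1.

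Where a gene had several probe sets, 8 of 11 such genes had probe sets of 1 sign over both days. The exceptions were eef2l2, given above, eif4g3a, whose probe sets gave 0.11, −0.67 and −0.35, and eif4e3, with −0.15 and 0.08. The eif4g3a probe set at 0.11 and the eef2l2 probe sets at −0.02 and 0.00 have a median ratio below 1. Like those of eef1a1a and eef1a1b, they may be probe sets with low signal. All 6 called genes had a single probe set, so none of their calls rests on an average over probe sets. For the same reason, none of these calls can be compared with a second probe set of the gene. Replicate spread was close to that of the array as a whole, with a median residual SD of 0.202 over the 63 genes (from 0.0560 for eef1a1b to 0.466 for eif4a2) and 0.216 over all features.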

How the data were processed

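Per the submitters' processing notes GCRMA was used, and the deposited values are linear ratios (version not given in the sources used here). The scaling is not stated and was read from the values: of 15617 rows, 12064 have a median of 1 over the 12 arrays (tolerance 1e-06), 3553 a lower and 0 a higher one. A ratio hides signal strength, so levels of different genes and distance from background are unknown, and the number of arrays limits precision. Log2 values were taken without a pseudocount (lowest ratio 0.000773). The 115 control probe sets were left out, and 10795 probe sets have 1 symbol in the platform annotation, 135 have more and 4572 are unnamed. Probe sets naming a factor together with another gene were left out (eif4g1a with selenof, eef1da with cirbpb). All 63 members matched the RefSeq gene table of GRCz12tu, which was used for names only.

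Group means were fitted with limma 3.58.1 (lmFit, eBayes; R 4.3.3; 8 residual and 2.16 prior degrees of freedom) on 13500 features, with Benjamini-Hochberg adjustment over all of them, two-sided, called under 0.05. The averaged effect is the mean of the effects at 2 and 3 dpa. The fit was tested on simulated data. Alternatives were the probe set with the highest mean ratio, single probe sets, the replicate number as a block, arrays of the compared groups only, centring, quantile normalization, a pseudocount of 0.1, features with a median of 1 (in place of a planned low-signal filter, which ratios do not allow), the hybridisation level as a block, and leaving out each array.

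Named genes were, in each comparison, up to 12 called members per direction or, with fewer than 5 called, the 5 of lowest p, all members of the eif2s, eif4e, eif4ebp, eif5a, eif6, eef1a and eef2 families, and in each pathway list those called and otherwise 1 to 3 of lowest p. Other members are given by role with their averaged estimates. The members and all lists were chosen with earlier results of these data known. The labels do not say whether a replicate number marks a shared batch. Among 18 pairs of same-numbered arrays the deviations from group means correlated from −0.26 to 0.50 (median 0.03), 7 of them over 0.1, and among 36 pairs of different number from −0.59 to 0.46 (median −0.03), 8 of them over 0.1. Since not every same-numbered pair passed 0.1, the arrays were treated as unpaired. This rule is strict and cannot exclude a shared batch, so the replicate block is given as an alternative. No 2 arrays held identical values. Sequences and genome positions were not used here.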

Additional observations from a re-analysis of the deposited data

How the results depend on the processing

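The count of 6 genes called over both days was 4 to 6 under 7 alternatives (highest probe set, single probe sets, centring, quantile normalization, pseudocount, median of 1, replicate block) and 1 (eif2s1a) with a hybridisation block, the level of the arrays' hybridisation controls. Leaving out 1 array gave 2 to 8: 2 without vehicle 2 dpa replicate 1, 2 or 3, vehicle 3 dpa replicate 1 or 2, or TCDD 3 dpa replicate 3; 3 without vehicle 3 dpa replicate 3 or TCDD 3 dpa replicate 1. Without TCDD 3 dpa replicate 2 there were 8, of which eif3ja and eif4g2b were higher. The call of eif2s1a was kept in all 21 alternatives run (adjusted p 0.00463 to 0.0255), and eif4h lost its call only with the hybridisation block (0.0600, range from 0.00817). The 1 call at 3 dpa became 0 with quantile normalization, features with a median of 1, the hybridisation block, arrays of the compared groups only, or the 2 low arrays left out, and 0 to 2 with 1 array left out, where eif4h joined when TCDD 2 dpa replicate 3 was left out and eif4g3b when TCDD 3 dpa replicate 2 was. The 0 calls at 2 dpa, between days and for the difference of effects stayed 0 in all alternatives. The median difference of the 63 genes stayed below 0 throughout: −0.15 to −0.0800 at 2 dpa (−0.15 without TCDD 2 dpa replicate 1), −0.18 to −0.0519 at 3 dpa (−0.18 without vehicle 3 dpa replicate 3) and −0.13 to −0.08 over both days with 1 array left out, and −0.19 at 3 dpa with the hybridisation block. That block reversed eif5a (−0.30) and eif2b1 (0.13) between days in vehicle, where level and day cannot be told apart and the blocked value rests on TCDD 3 dpa replicate 2.

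With the replicate block 4 genes were called over both days (eif2s1a, eif4h, eif2d and eif1axb), 1 at 3 dpa and 0 at 2 dpa. The arrays were treated as unpaired, since not every same-numbered pair correlated, a rule that cannot exclude a shared batch. Over all features, counts of calls ranged with 1 array left out from 310 to 1417 over both days (783 with all arrays; 360 with the hybridisation block), from 29 to 393 at 3 dpa (77; 139 with the replicate block, 193 with the hybridisation block, 10 with the compared groups only) and from 9 to 49 at 2 dpa (26; 166 with quantile normalization). Over both days, the count over all features is given for the hybridisation block alone among single alternatives. Changes in the members' counts are therefore not read as results about the factors. The causes were not tested. With 3 arrays a group and ratios in place of signal, genes near background cannot be set apart.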
